A study of Mus musculus with 6 samples.

Results

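The binding regions described here are the NOVA clusters that lay in exons of noncoding transcripts, 104 of the 9988 NOVA1 clusters and 179 of the 36591 NOVA2 clusters, or 283 of 46579 in all (0.608%). NOVA1 and NOVA2 were each crosslinked to RNA and immunoprecipitated (HITS-CLIP) from the cortex of wild-type CD1 mice at embryonic day 18.5, with 3 libraries per protein. Embryos carried no mutation or treatment. The authors pooled the libraries of a protein into 1 list of clusters, each with at least 10 sequence tags, a position and a strand, and without values per library, so that no spread between libraries could be computed. The study calls its tag threshold a peak height, so that a cluster's tag number may be the depth at its highest point rather than all of its tags. A cluster counted as a member when most of its nucleotides lay, on its own strand, in an exon of a GENCODE vM1 transcript that was neither protein coding nor a retained intron, and outside the coding sequence (CDS) and untranslated regions (UTRs) of coding transcripts. Mitochondrial clusters were left out, as were the clusters of Meg3, Rian, Mirg, Malat1, Neat1 and Miat, 33 for NOVA1 and 36 for NOVA2. Of the members, 74 of 104 NOVA1 clusters (71.2%) and 145 of 179 NOVA2 clusters (81.0%) lay in noncoding exon over their whole length. All intervals below are at the 95% level and cover counting error only.

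The NOVA proteins, both made by neurons, bind RNA through KH domains that recognise the tetramer YCAY, where Y is C or U. They are best known for directing alternative splicing in neurons from sites in introns and exons of pre-mRNA, and they also bind 3' UTRs. Noncoding exons bring together RNAs of unlike biology: long noncoding RNAs, transcripts of coding genes that lack an open reading frame or are degraded by nonsense-mediated decay, and small structured RNAs such as small nucleolar RNAs (snoRNAs), which guide modification of ribosomal RNA, spliceosomal RNAs, Y RNAs and microRNA precursors.

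The sequences of clusters with many tags differed in how many copies of the motif they held. For each cluster below, the 30 nt stretch with the most YCAY tetramers (CCAC or CCAT, TCAC or TCAT, overlaps counted) is printed 5' to 3' on the strand of the RNA, read from the mm9 genome (NCBIM37), with each YCAY in capitals. The first set is shown for clusters with many tags, 5 in noncoding transcripts of coding genes and 2 in long noncoding genes.
Dnajb5, chr4:42963979-42964008, + strand: CCATgTCATTCATctctctctcaaacTCAT
Luc7l2, chr6:38507006-38507035, + strand: taagCCATCCATttattatacttggcTCAT
Pank2, chr2:131108952-131108981, + strand: aTCATaTCACtcttCCATttcagcccTCAT
Ptprd, chr4:76239323-76239352, - strand: CCATtTCACttccctgacaatttagtTCAT
Rc3h2, chr2:37235635-37235664, - strand: gcatttttaacttatTCATatTCATcTCAC
C130071C03Rik, chr13:83879840-83879869, + strand: tattttaaagTCATgtcTCATagcatTCAT
Xist, chrX:100662364-100662393, - strand: atccctctctttttcttgtgcTCACcCCAC
The second set is shown for clusters with many tags in small RNA genes.
Y_RNA, chr6:47731681-47731710, + strand: tttgttccttctccgctcCCACtgctTCAC
Y_RNA, chr6:47738138-47738167, - strand: ggtagtgagttatctcaattgattgtTCAC
Snord32a, chr7:52382848-52382877, - strand: aggtacttctgggtaagttTCATTCACCAT
Snord118, chr11:68886993-68887022, + strand: cttgcatgatctgctgattagcatttCCAT
AC113316.1, chr5:147072568-147072597, + strand: tgtacggaagacgcactccccggcgccgct
The stretches of the first set held 2 YCAY (Xist) to 4 (Pank2 and Dnajb5), and those of the second held 0 to 3, with 3 in Snord32a. The Snord32a stretch lay wholly outside the annotated snoRNA (chr7:52382752-52382834), in the part of the cluster that ran past it. The sets are examples and leave out others with many tags, such as Sgip1 (178 NOVA2 tags, 2 YCAY) and 7SK (129 NOVA1 tags, 1 YCAY). A wider cluster also offered more stretches to choose from. The AC113316.1 cluster, the NOVA1 member with the most tags, held 0 over its 121 nt.

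Members fell into 4 groups by the type of gene and transcript that held most of the cluster. The types are those of GENCODE vM1, and whether a gene typed as noncoding or as a pseudogene codes for protein was not tested. NOVA1 had 26 clusters in 15 long noncoding genes, 32 in noncoding transcripts of 25 coding genes, 37 in 36 small RNA genes and 9 in 6 pseudogenes. NOVA2 had 52 clusters in 27 long noncoding genes, 96 in noncoding transcripts of 72 coding genes, 19 in 19 small RNA genes and 12 in 6 pseudogenes. Small RNA genes therefore made up 35.6% of NOVA1 members and 10.6% of NOVA2 members, a difference of 25.0 percentage points (14.9 to 35.2). For noncoding transcripts of coding genes the order among members was opposite, 30.8% against 53.6%, a difference of -22.9 points (-33.6 to -10.9). Long noncoding genes took 25.0% of NOVA1 and 29.1% of NOVA2 members, a difference whose interval spanned 0 (-14.2 to 6.95 points). A larger share of members in 1 group lowers the shares of the others. Of the whole lists, noncoding transcripts of coding genes held 0.32% for NOVA1 and 0.26% for NOVA2 (difference 0.059 points, -0.051 to 0.199). Long noncoding genes held 0.26% and 0.14% (difference 0.119 points, 0.025 to 0.245), and small RNA genes 0.37% and 0.052%. The small RNA count was higher in the shorter list also as a number of clusters, although the NOVA2 list held 1309270 tags and the NOVA1 list 304703.

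**Figure D1:**
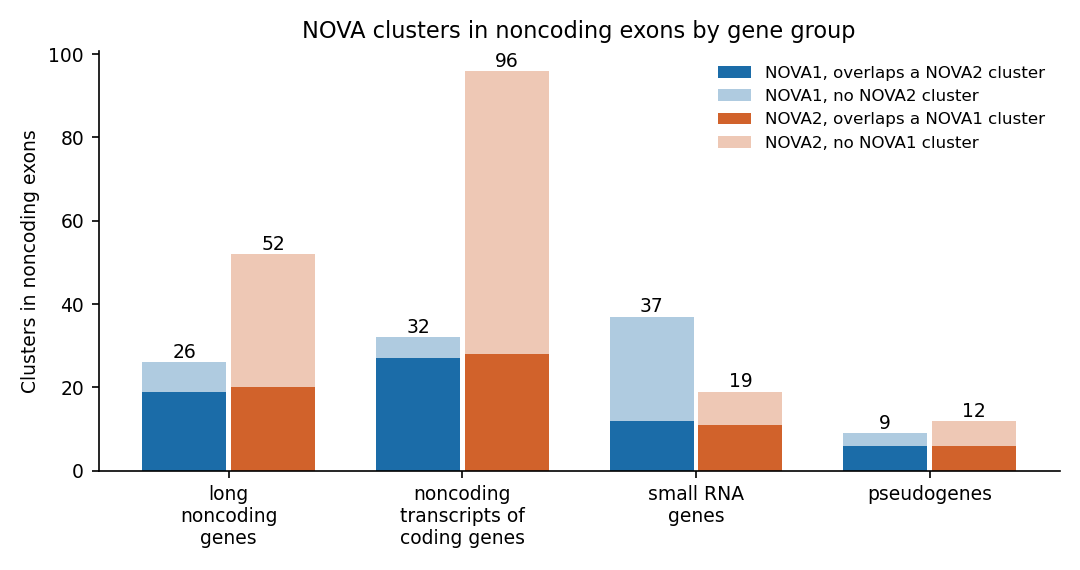
Number of clusters in noncoding exons (vertical axis) in each of the 4 gene groups, for NOVA1 (blue) and NOVA2 (orange); the dark part of a bar overlaps a cluster of the other protein and the pale part does not. NOVA1 exceeded NOVA2 only in small RNA genes, with 37 against 19 clusters.

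By transcript type, processed_transcript, a type for noncoding transcripts without a closer class, led both lists with 40 NOVA1 and 95 NOVA2 clusters. The type furthest apart was the snoRNA, with 24 NOVA1 clusters (23.1% of members) and 6 NOVA2 clusters (3.35%), a difference of 19.7 points (11.7 to 28.9). Transcripts subject to nonsense-mediated decay held 5 NOVA1 and 16 NOVA2 clusters, lincRNA transcripts 6 and 24, and miRNA precursors 3 and 7. Spliceosomal snRNAs held 4 NOVA1 clusters and 1 NOVA2 cluster. Taken over whole lists, noncoding exon members were 1.05% of NOVA1 clusters (0.863 to 1.26) and 0.490% of NOVA2 clusters (0.423 to 0.566). The median member held 19.5 tags for NOVA1 and 21 for NOVA2.

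Overlap between the 2 proteins, by 1 nt or more on the same strand, separated the groups further. Of the NOVA1 members, 64 of 104 (61.5%, 51.9 to 70.3) overlapped a NOVA2 cluster, below the 80.2% of all NOVA1 clusters. The shortfall lay in small RNA genes, where 12 of 37 (32.4%, 19.6 to 48.5) overlapped. Without them, 52 of 67 NOVA1 members (77.6%, 66.3 to 85.9) overlapped NOVA2, which differed from the rest of the list by -2.78 points (-14.1 to 5.58). Of the NOVA2 members, 65 of 179 (36.3%, 29.6 to 43.6) overlapped a NOVA1 cluster, against 22% of all NOVA2 clusters. Both shares depended on the length of the lists: with the NOVA2 list reduced to as many clusters as the NOVA1 list, by tag number, they were 41.4% for NOVA1 and 70.7% for NOVA2. The shares of all clusters were not computed for the reduced list, so these 2 values cannot be set against 80.2% and 22%. In the full lists the NOVA2 share reached 57.9% (11 of 19) in small RNA genes and was 38.5% in long noncoding genes and 29.2% in noncoding transcripts of coding genes. Members present in both lists had more tags than the others, with medians of 25 against 13.5 for NOVA1 and 47 against 16 for NOVA2, where all clusters had medians of 17 against 13 and 46 against 16. The 40 NOVA1 members without a NOVA2 cluster included 25 in small RNA genes, and the 114 NOVA2 members without a NOVA1 cluster included 68 in noncoding transcripts of coding genes.

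Among long noncoding genes, Xist, the RNA that coats and silences the inactive X chromosome, held the most clusters in exons. NOVA1 had 4 clusters in it with 100 tags together, and NOVA2 had 7 with 559 tags. The dominant NOVA2 cluster, chrX:100662083-100662694, had 398 tags over 612 nt, and the NOVA1 cluster inside it had 61 tags. It began 15862 nt from the start of the gene and lay in the last of 7 exons of the transcript. The 4 NOVA1 clusters, with 61, 16, 13 and 10 tags, all overlapped NOVA2 clusters, which held 398, 47, 31 and 23 tags in the same order. The other 3 NOVA2 clusters of Xist had 24, 20 and 16 tags and no NOVA1 counterpart. Of the 11 clusters, 10 held at least 1 YCAY. The NOVA2 cluster with 24 tags had 0 over 202 nt. Embryo sex was not given in the labels, so that the share of cells able to express Xist was unknown.

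C130071C03Rik, a brain-expressed long noncoding gene on chromosome 13 (83861160 to 83880913, + strand), carried a second concentration of clusters. All 9 of its member clusters stood at the 3' end of the gene, in a region 18344 to 19799 nt from the start that is the last exon of one transcript and a single-exon transcript of its own. NOVA2 clusters there had 156, 154, 45, 40, 16 and 13 tags, and NOVA1 clusters had 61, 34 and 11. All 3 NOVA1 clusters overlapped NOVA2 clusters, and all 9 clusters held YCAY. Wnk3-ps on the X chromosome showed the same layout, with 6 NOVA2 clusters of 49, 47, 26, 26, 16 and 12 tags and 2 NOVA1 clusters of 36 and 14 tags, all of them in the last of its 22 exons. Wnk3-ps counted as noncoding by its annotated type alone, so these clusters may not represent a long noncoding RNA. The short gene 6330403K07Rik held clusters in both exons. In its first exon NOVA2 led with 59 tags against 22 and had a further cluster of 11 tags, and in its second exon NOVA1 led with 31 against 12.

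**Figure D2:**
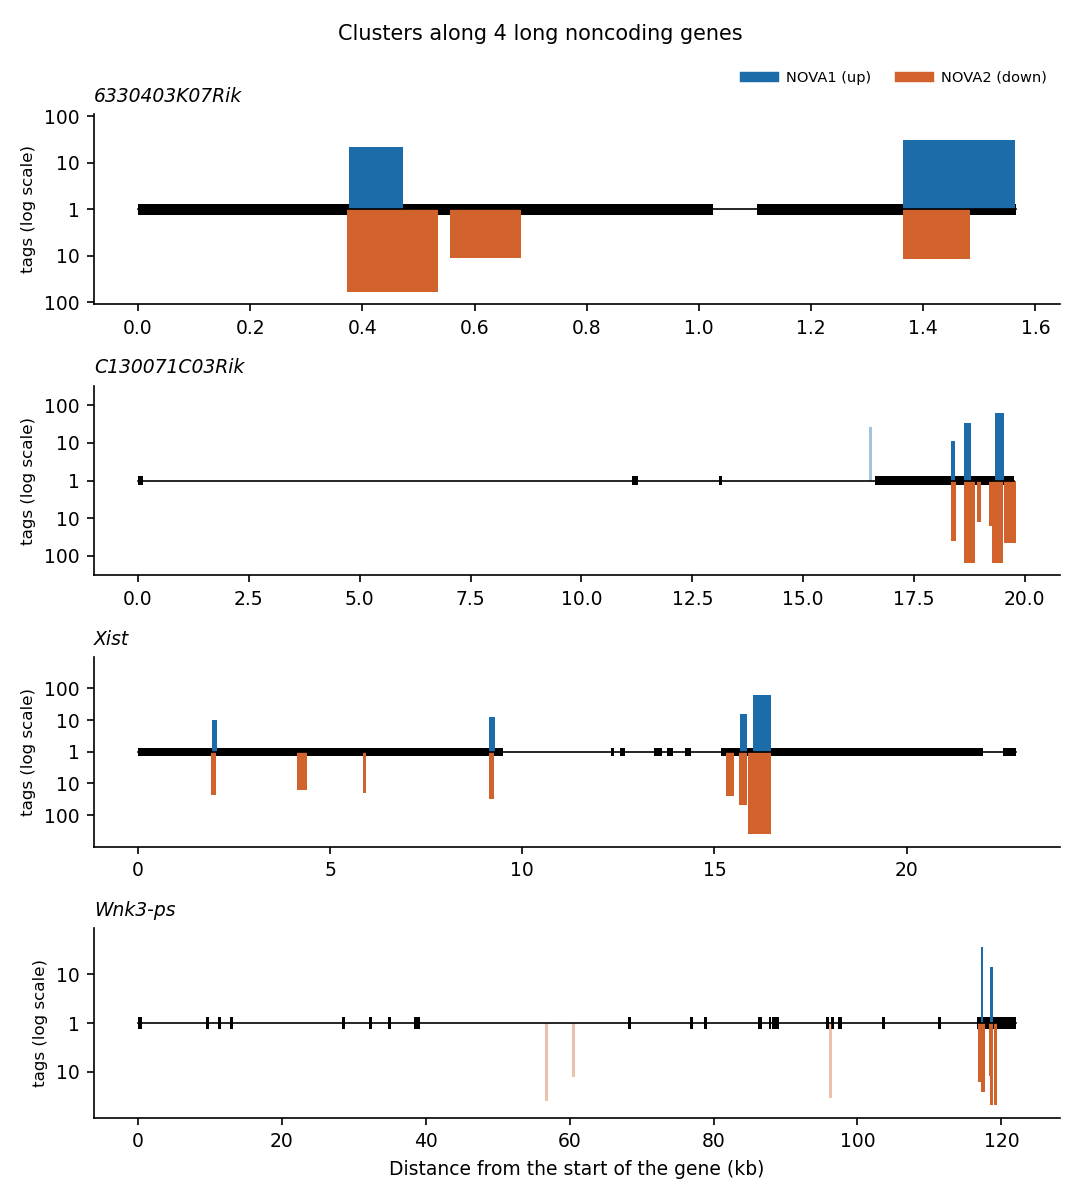
Clusters along 4 of the long noncoding genes with the most member clusters. Tug1, with as many as 6330403K07Rik, is not drawn. The horizontal axis is the distance from the start of the gene in kb, and black boxes are exons. Bar height is the tag number on a log scale from 1, NOVA1 upwards in blue and NOVA2 downwards in orange. Pale bars are clusters in introns. In C130071C03Rik and Wnk3-ps the member clusters stood at the 3' end, in the last exon, and in Xist they stood in its 2 longest exons.

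Tug1, a widely expressed nuclear long noncoding RNA, held 3 NOVA1 clusters of 26, 12 and 10 tags and 2 NOVA2 clusters of 19 and 10 tags. Both NOVA2 clusters lay opposite the NOVA1 cluster of 26 tags, and the other 2 NOVA1 clusters stood alone. Gm16712 held 4 NOVA2 clusters of 26, 16, 11 and 10 tags within 1 exon of 1597 nt and 0 NOVA1 clusters; 3 of the 4 held 12 YCAY each, and 1 of these, of 10 tags, matched 8 further places in the genome. Gm15564 stood at the opposite end, with 385 NOVA1 tags and 14 NOVA2 tags at overlapping positions (chr16:35981755-35981896 and chr16:35981772-35981883, - strand). The sequence of the Gm15564 NOVA1 cluster matched 9 further places in the genome, so that the origin of its tags was uncertain, and 50% of the cluster lay in the exon. A930011O12Rik held the lincRNA cluster with the most NOVA2 tags, 121, opposite 2 NOVA1 clusters of 37 and 23 tags, and A830039N20Rik held 49 and 39. B930095G15Rik, a transcript inside an intron, had 102 NOVA2 and 14 NOVA1 tags. Clusters in long noncoding genes seen for NOVA2 alone were led by 1110002J07Rik (57 tags), Gm17360 (55) and the Wnk3-ps cluster of 47 tags, and D030055H07Rik led the antisense transcripts (34). Over all 3837 annotated long noncoding genes, 15 held NOVA1 members and 27 held NOVA2 members. Of 9 annotated genes on a list of neuronal long noncoding RNAs, 3 held NOVA1 members (C130071C03Rik, A930011O12Rik and 6330403K07Rik) and 5 held NOVA2 members, the same 3 with Dlx1as (27 tags) and 1700020I14Rik (18 tags). That list was written with earlier results of these data known, so its shares do not measure enrichment over the 3837 genes. Of 12 annotated host genes of small RNAs, Snhg12 alone held a member, a NOVA1 cluster of 10 tags. Of 4 annotated imprinted noncoding genes, H19, Airn, Nespas and Nctc1, 0 held a member in either list. Snhg14, Kcnq1ot1 and Peg13 of that list were not annotated, and Meg3, Rian and Mirg had been left out of the members. So few genes cannot be set against 15 and 27 of 3837.

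NOVA clusters in long noncoding genes were set against those in the introns of the same class of gene, over all 3837 annotated genes. NOVA1 clusters were 4.36 per Mb of exon and 0.80 per Mb of intron, a ratio of 5.45 (3.27 to 8.85). NOVA2 clusters were 8.71 per Mb of exon and 4.01 per Mb of intron, a ratio of 2.17 (1.58 to 2.93). With 26 NOVA1 clusters in exons and 54 in introns, and 52 and 271 for NOVA2, exons held 32.5% and 16.1%, a difference of 16.4 points (6.15 to 27.8). Ttc28, annotated here as a lincRNA gene, held the most clusters, 35 of them NOVA2 clusters in introns and 2 of them NOVA1 clusters in exons, of 38 and 20 tags. Without Ttc28 the difference was 15.8 points (4.71 to 28.0). The lean of NOVA1 to exons was not particular to long noncoding genes. Over the whole lists NOVA1 had 3761 clusters in 3' UTRs, 845 in CDS and 4022 in introns. NOVA2 had 4415, 528 and 27293. The genes of the neuronal list lay on both sides. Sox2ot had 4 NOVA1 and 16 NOVA2 intron clusters, Rmst had 4 and 7, 2610307P16Rik had 3 and 30, Dlx6os1 had 0 and 4, and these had no exon cluster. C130071C03Rik had 9 exon clusters and 1 intron cluster, and A930011O12Rik, 6330403K07Rik, Dlx1as and 1700020I14Rik had exon clusters alone. Tag abundance in CLIP also follows RNA abundance, which differs between spliced RNA and introns and was not measured here.

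Noncoding transcripts of coding genes were the largest NOVA2 group. Their clusters mostly stood within long terminal exons. The exon was the last of its transcript for 22 of 32 NOVA1 clusters (68.8%) and 57 of 96 NOVA2 clusters (59.4%), with a median exon length of 2059 and 1478.5 nt. It overlapped an exon of a coding transcript elsewhere along its length for 24 of 32 (75%) and 67 of 96 (69.8%), and the median distance from the cluster to a coding exon was 585.5 and 544 nt. Such an exon often runs from a coding exon into the following intron, so tags of a spliced noncoding transcript and tags of the intron of the coding pre-mRNA cannot be told apart.

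The cluster with the most NOVA2 tags in this group lay in Dnajb5, an Hsp40 family cochaperone, with 367 tags over 449 nt and 23 YCAY. NOVA1 had 2 clusters that overlapped it, with 41 and 31 tags. Luc7l2, a splicing factor associated with the U1 snRNP, had 299 NOVA2 and 66 NOVA1 tags, the latter the highest NOVA1 value of the group. Sgip1, which acts in endocytosis at synapses, had the strongest cluster in a transcript subject to nonsense-mediated decay, 178 NOVA2 and 26 NOVA1 tags in 60 and 63 nt. Pank2, a pantothenate kinase of coenzyme A synthesis, had 175 NOVA2 and 41 NOVA1 tags in the last of 5 exons. Rc3h2, an RNA-binding ubiquitin ligase, had 140 NOVA2 and 17 NOVA1 tags, and Plaa had 137 and 25. Mapk9, the JNK2 kinase, had 115 and 20, and Gigyf2 had 103 and 48. Hps3 had the most tags of any NOVA2 member without a NOVA1 cluster, 117, and Rab12, a small GTPase, had 63 without one. In transcripts subject to nonsense-mediated decay, Fbxl20 had 73 NOVA2 and 12 NOVA1 tags, the NOVA1 cluster with 50 further copies in the genome, and Usp33 had 45 and 18, whereas Enpp5 had 26 NOVA1 tags and no NOVA2 cluster.

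Ptprd, a receptor tyrosine phosphatase that organises synapses, held the most clusters of any coding gene, 3 for NOVA1 with 34 tags together and 6 for NOVA2 with 347. Its NOVA2 clusters had 142, 75, 56, 32, 28 and 14 tags in the last exons of 3 noncoding transcripts. NOVA1 clusters had 11, 11 and 12 tags opposite the NOVA2 values of 142, 32 and 14. The related phosphatase Ptprf had 143 NOVA2 tags and 16 NOVA1 tags in 1 cluster and a second NOVA2 cluster of 14 tags. Ppip5k2, an inositol pyrophosphate kinase, and Smarce1, a subunit of the BAF chromatin remodelling complex, each held 4 NOVA2 clusters, between 14 and 32 tags and between 12 and 30 tags, and 0 NOVA1 clusters. Xkr4 and 6230409E13Rik went the other way in number, with 3 NOVA1 clusters each against 2 and 1 for NOVA2.

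In small RNA genes the 2 lists differed in which RNAs they held. The gene sets numbered 36 for NOVA1 and 19 for NOVA2, with 11 genes in both. Of the 24 NOVA1 snoRNA clusters, 18 had no NOVA2 cluster. The strongest of these 18 were in Snord118 (77 tags), the U8 RNA of ribosomal RNA processing that is not encoded in an intron, and SNORA62 (53 tags), which lies in an intron of the ribosomal protein gene Rpsa. AC150277.1 followed with 43 tags, and Snord111, Snord35a, Snord35b, SNORD12 (chr2:166888973-166889065) and Snord49b had 30, 26, 20, 19 and 18. Snord32a, a methylation guide in the ribosomal protein gene Rpl13a, had clusters of both proteins, with 90 NOVA1 and 107 NOVA2 tags. Snord64, of the imprinted Prader-Willi region, had 32 and 31 tags. The other of 2 genes named SNORD12 had 25 and 10, SNORD83 had 16 and 11, and snoU90 had 23 and 73. Snord14c, with 18 NOVA2 tags, was the only snoRNA gene with a NOVA2 cluster alone.

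The snoRNA clusters had about the extent of the annotated RNA. A NOVA1 cluster covered a median of 95.5% of the snoRNA, and 19 of 24 covered at least 75% of it, with a median cluster width of 82 nt. For NOVA2 the median was 92.6%, with 5 of 6 above 75%. By comparison, NOVA1 clusters in long noncoding genes covered a median of 7.12% of their exon. Of the 24 NOVA1 snoRNA clusters, 22 lay inside another gene on the same strand, so that the snoRNA and the intron of its host cannot be told apart by position alone. The snoU97 cluster of NOVA1 (29 tags) overlapped a NOVA2 cluster of 14 tags that counted to a noncoding transcript of its host Eif4g2, where more of its nucleotides lay.

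The clusters of 2 Y RNA genes on chromosome 6 had the most NOVA2 tags of all member clusters. One (chr6:47731622-47731726, + strand) had 1361 NOVA2 and 557 NOVA1 tags and the other (chr6:47738068-47738181, - strand) had 430 and 216, and the clusters spanned each RNA from end to end. Both sequences had further copies in the genome, 1 and 3. 7SK, the RNA that holds the elongation factor P-TEFb inactive, had 129 NOVA1 and 47 NOVA2 tags over 50.5% and 41.4% of its length. RNase_MRP, a ribonuclease RNA, had 12 NOVA2 tags. The 5.8S ribosomal RNA gene n-R5-8s1 had a NOVA1 cluster of 272 tags opposite a NOVA2 cluster of 111. Among spliceosomal RNAs NOVA1 had clusters in U12 (40 tags), U4 (12), U6atac (11) and U5 (10), of which U6atac alone had a NOVA2 cluster (10 tags). All 5 spliceosomal clusters matched further places in the genome.

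**Figure D3:**
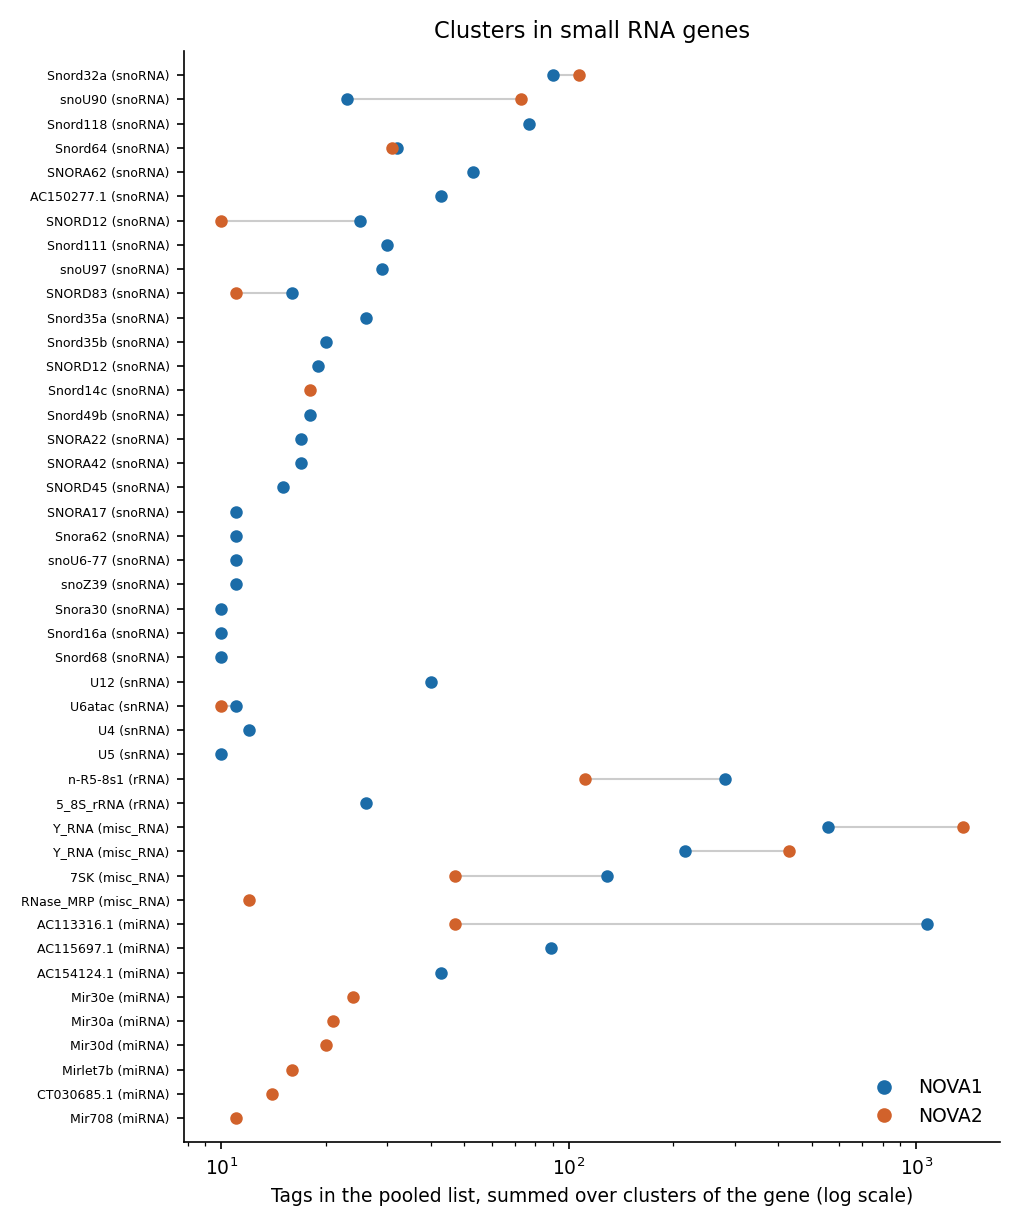
Tags per small RNA gene, summed over its clusters, on a log scale (horizontal axis), for NOVA1 (blue) and NOVA2 (orange), with a grey line joining genes present in both lists; a gene without a point for a protein had no cluster there, which means under 10 tags or fewer than 2 libraries, and snoU97 is drawn without its NOVA2 cluster, which counted to Eif4g2. Most snoRNAs had a NOVA1 point only, and the named miRNA genes had a NOVA2 point only.

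Named microRNA genes appeared in the NOVA2 list alone. Mir30e had 24 tags, Mir30a 21, Mir30d 20, Mirlet7b 16 and Mir708 11, and no NOVA1 cluster overlapped any of them. Apart from Mir30e, whose cluster spanned 50 nt, these clusters were 23 to 25 nt wide. The clusters of Mir30e, Mir30a, Mirlet7b and Mir708 contained the whole 5' mature microRNA. The mature sequences (RefSeq, GRCm38.p6) are printed 5' to 3' with the seed, bases 2 to 8, in capitals, and the first 2 share it.
mmu-miR-30e-5p: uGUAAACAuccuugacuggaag
mmu-miR-30a-5p: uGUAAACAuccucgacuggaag
mmu-let-7b-5p: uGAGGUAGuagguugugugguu
mmu-miR-708-5p: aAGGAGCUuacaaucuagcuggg
The longest run that any of these 4 clusters shared with the 3' mature strand of its gene was 6 nt, and all 5 clusters in named microRNA genes had 0 YCAY. The other NOVA2 members typed as miRNA were AC113316.1 (47 tags) and CT030685.1 (14 tags). The clusters in named microRNA genes had few tags, between 11 and 24. Of all NOVA2 clusters only 22% overlapped a NOVA1 cluster, and clusters under 10 tags were not listed. Absence from the NOVA1 list therefore does not show that NOVA1 left these RNAs unbound. The NOVA1 members typed as miRNA were of another kind, annotated without an established name: AC113316.1 in an intron of Cdk8 (1072 NOVA1 and 47 NOVA2 tags), AC115697.1 (89 NOVA1 tags) and AC154124.1 (43 NOVA1 tags). Their clusters were 52 to 121 nt wide, all without YCAY. AC115697.1 and AC154124.1 matched 2 and 14 further places in the genome. For AC113316.1 the NOVA1 cluster matched 0 further places, but the NOVA2 cluster at nearly the same position matched 1. The origin of the AC113316.1 tags was therefore uncertain too.

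The pseudogene group rested on few genes. 9330132A10Rik had 3 clusters in each list, of 31, 28 and 10 NOVA1 tags and 43, 25 and 23 NOVA2 tags at the same positions. Kctd12, whose clusters lay in a transcript typed as a pseudogene, had NOVA2 clusters of 71, 48, 16 and 11 tags and NOVA1 clusters of 31 and 20. Gm15881 had NOVA2 clusters of 37 and 12 tags, and Gm13301 had 1 of 19. The pseudogenes Gm13509, Gm11223 and Gm15487 had NOVA1 clusters alone, of 12, 11 and 11 tags, and each had further copies in the genome (3, 4 and 2). Every cluster of the group, 9 for NOVA1 and 12 for NOVA2, held YCAY.

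The YCAY tetramer was counted in the clusters and in flanks 200 to 500 nt to either side. In NOVA1 members its density was 29.7 per 1000 positions, against 17.3 in the flanks, a fold of 1.72 (1.53 to 1.93). NOVA2 members held 36.4 against 18.5, a fold of 1.97 (1.81 to 2.13). Against other noncoding exon of the same genes outside all clusters, available for 46 of 82 NOVA1 and 101 of 124 NOVA2 genes, the folds were 1.75 (1.57 to 1.94) and 2.25 (2.08 to 2.42). On the opposite strand the clusters held 16.7 and 12.5 per 1000. The members lay below all clusters of their protein, which had folds of 2.03 (2.01 to 2.05) and 2.29 (2.28 to 2.31), and below clusters in introns, at 2.81 and 2.41. They lay above clusters in 3' UTRs by point estimate, at 1.54 (1.52 to 1.57) and 1.71 (1.68 to 1.74). Clusters in CDS had 1.70 (1.64 to 1.77) for NOVA1, near the members, and 2.53 (2.42 to 2.64) for NOVA2, above them. At least 1 YCAY was present in 93 of 104 NOVA1 members (89.4%) and 170 of 179 NOVA2 members, against 98.1% and 99.3% of all clusters and 81.7% and 76.0% of flanking stretches of the members' own lengths.

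The groups differed in this measure. Noncoding transcripts of coding genes had a fold of 2.18 (1.80 to 2.62) for NOVA1 and 2.19 (1.96 to 2.45) for NOVA2. Long noncoding genes had 1.74 (1.41 to 2.15) and 1.76 (1.52 to 2.03). Small RNA genes had 0.969 (0.705 to 1.31) and 1.11 (0.713 to 1.66), intervals that held 1 and lay below those of the coding genes' transcripts. Small RNA genes also accounted for 10 of the 11 NOVA1 members without YCAY and 7 of the 9 NOVA2 members without it. NOVA1 members that no NOVA2 cluster overlapped had a fold of 1.22 (0.958 to 1.53), against 1.94 (1.69 to 2.22) for those overlapped. Small RNA genes held 25 of the 40 members without overlap and 12 of the 64 with it. The 2 NOVA1 folds were not computed without small RNA genes, so overlap and gene group cannot be told apart here. For NOVA2 the folds were 2.08 (1.87 to 2.30) without and 1.92 (1.67 to 2.20) with overlap. Where clusters of both proteins overlapped, the sequence counted was largely shared, so the 2 proteins' folds were not independent.

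**Figure D4:**
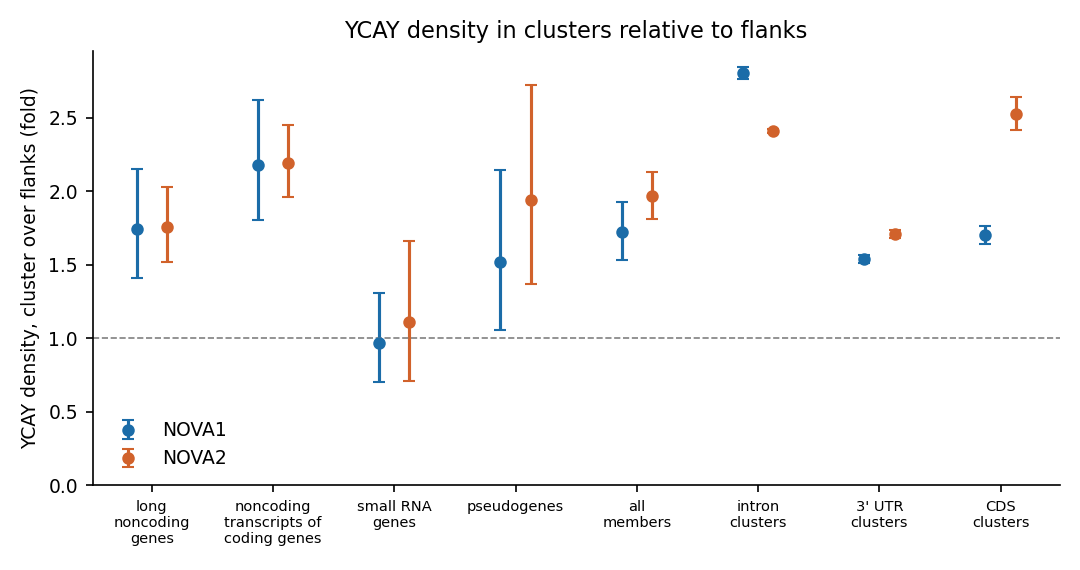
Fold of YCAY density in clusters over their flanks (vertical axis, from 0) for the 4 gene groups, all members, and clusters in introns, 3' UTRs and CDS; points are NOVA1 (blue) and NOVA2 (orange), bars are exact 95% intervals and the dashed line marks 1. Small RNA genes sat at 0.969 and 1.11, and noncoding transcripts of coding genes at 2.18 and 2.19.

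The tags of both proteins were compared in 54 member pairs in which a NOVA1 and a NOVA2 cluster overlapped each other and nothing else. On the log2 scale NOVA1 tags over NOVA2 tags had a median of -1.20 (-1.42 to -0.79), and NOVA1 had more tags in 11 pairs (20.4%, 11.8 to 32.9), against 14.7% of all such pairs. All 6759 pairs had a median of -1.34 (-1.39 to -1.30), which lay inside the members' interval. The ratio was not scaled to library size, and NOVA2 had more tags in its list. Pairs in introns had a median of -2.04 and pairs in 3' UTRs -0.40. The member median was 0.83 above introns (0.61 to 1.25) and 0.80 below 3' UTRs (difference -0.80, -1.03 to -0.38). With at least 20 tags in both lists the difference from 3' UTRs was -0.63 and its interval held 0 (-1.17 to 0.08). By group the difference from introns was 2.17 (0.75 to 3.49) for small RNA genes, whereas it was 0.61 (-0.16 to 1.71) for long noncoding genes and 0.50 (-0.49 to 0.94) for noncoding transcripts of coding genes, intervals that held 0. From 3' UTRs the difference was -1.02 (-1.80 to 0.07) for long noncoding genes and -1.14 (-2.12 to -0.70) for noncoding transcripts of coding genes. Within the members, noncoding transcripts of coding genes had a median of -1.54 (-2.52 to -1.10) over 23 pairs, and NOVA1 led in 0 of them. Small RNA genes had a median of 0.14 (-1.29 to 1.46) over 11 pairs, and NOVA1 led in 7. The difference between these medians was 1.68 (0.19 to 3.32). Long noncoding genes had a median of -1.42 (-2.20 to -0.33) over 13 pairs and pseudogenes -0.89 over 6.

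Among single pairs, Gm15564 (385 against 14), AC113316.1 (1072 against 47) and 7SK (129 against 47) were the most shifted to NOVA1. The most shifted to NOVA2 were Ptprd (11 NOVA1 and 142 NOVA2 tags), Camta1, a calmodulin-binding transcription activator (11 and 125), and Ptprf (16 and 143). The 3 pairs led by NOVA1 were a long noncoding gene and 2 small RNA genes, and the 3 led by NOVA2 were all coding genes.

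**Figure D5:**
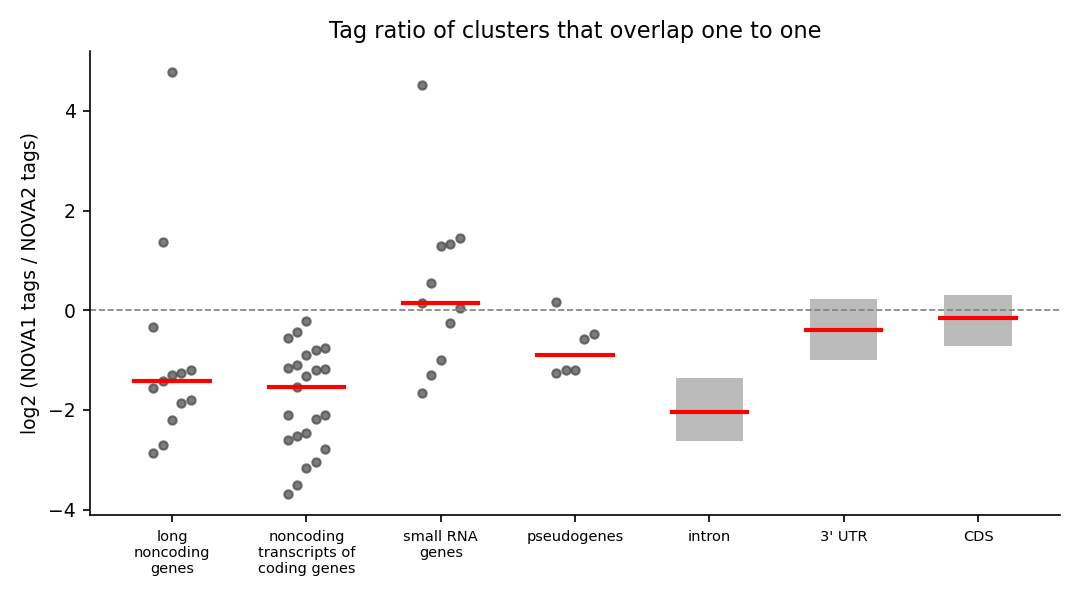
log2 ratio of NOVA1 to NOVA2 tags (vertical axis) for member pairs in each gene group (points, with the median as a red line) and, for comparison, the middle 50% of pairs in introns, 3' UTRs and CDS (grey boxes, red median); 1 pair whose clusters fell in different groups is not drawn. All 23 pairs of coding genes' noncoding transcripts lay below 0, and 7 of 11 small RNA pairs lay above it.

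Repeated sequence touched small RNA genes most. Sequence of 90% identity or more, spanning 50% or more of a cluster, was found elsewhere in the genome for 25 of 104 NOVA1 members (24.0%) and 22 of 179 NOVA2 members (12.3%), including 17 of 37 and 7 of 19 in small RNA genes. Tags from such RNAs can be assigned to a wrong copy. The 4 NOVA2 microRNA clusters of 23 to 25 nt were too short for that search and had 0 further exact matches.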

How the data were processed

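HITS-CLIP libraries (3 per protein, embryonic day 18.5 cortex) were analysed from the authors' cluster lists for NOVA1 and NOVA2. The authors aligned tags to mm9 (Novoalign, per the submitters' notes, version not given), grouped tags of at least 2 of 3 libraries into clusters and deposited those with at least 10 tags. The deposited values are whole-number counts of tags, 1 per cluster, pooled over libraries and not scaled. The files do not say whether a count is of all tags; the study's text names its threshold a peak height. No replicate error, p-value or library-level test could be had; the values sum to 304703 and 1309270. Cell types were not checked against markers, since the lists hold bound RNA only.

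Clusters were classed against GENCODE vM1 by the class covering most nucleotides, where CDS came before both kinds of UTR, these before noncoding exon, and that before intron, the 10 kb beyond a gene's ends and intergenic sequence. Shares carry Wilson intervals, differences of shares Newcombe intervals, YCAY folds exact conditional binomial intervals and medians order-statistic intervals; differences of medians join the 2 intervals by squares. Copies were sought with BLAST+ 2.17.0 (E-value limit 1e-05). Scripts ran under pysam 0.24.0, SciPy 1.17.1, NumPy 2.4.6, pandas 2.3.3 and Python 3.11.15. The functions were tested on simulated clusters and sequences. The members, gene lists and tests were chosen with earlier results of these data known. Genes were named by rule: the 10 members with most tags and the 5 unshared with most tags in each list, the highest of each transcript type, genes with at least 3 members in a list, the 3 pairs at either end of the tag ratio, and listed known RNAs; other names illustrate a group and were chosen after their values were seen. Alternatives are given in the closing section.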

Additional observations from a re-analysis of the deposited data

Results flagged for a closer look

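Mitochondrial RNA, left out of the members, also held clusters in noncoding exons. NOVA1 had 9 such clusters with 1547 tags and NOVA2 had 9 with 610 tags, in the ribosomal RNAs mt-Rnr1 and mt-Rnr2 and in transfer RNAs, and no control immunoprecipitation was analysed here. NOVA1 thus held more tags in the mitochondrial ribosomal and transfer RNAs than NOVA2, although its list was the shorter.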

How the results depend on the processing

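Across 11 results and the alternatives run for them, 74 of 91 values remained inside the interval first reported (for numbers of members, within 1.5 times, as for the 154 NOVA1 members with retained introns counted) and 0 changed direction; the classing by a cluster's midpoint, the demand for 90% of the cluster in noncoding exon, an overlap of 50% of the shorter cluster, nearer flanks, and leaving out Xist, transcripts subject to nonsense-mediated decay or clusters with copies took none of them outside. With at least 20 tags in both lists, 52 NOVA1 and 96 NOVA2 members remained and 7.29% of the latter had copies, and the difference from 3' UTRs, -0.63, had an interval that held 0 (-1.17 to 0.08). With retained introns counted, NOVA2 members numbered 411, the overlap was 72.1% for NOVA1 and 27.0% for NOVA2, the YCAY folds were 1.997 and 2.18, the median tag ratio was -1.45, and it lay 0.59 above introns and -1.04 from 3' UTRs. With the NOVA2 list reduced to its strongest clusters at the length of the NOVA1 list, the overlap was 41.4% and 70.7% and the median ratio -1.54. The overlap of all clusters was not computed for that reduced list. Against other noncoding exon of the same genes the NOVA2 YCAY fold was 2.25. With copies sought at 80% identity, 33.7% and 18.99% of members had one. The causes were not tested. No paired analysis was possible because each list pools the libraries of its protein, and for the same reason no library could be left out. Clusters under 10 tags were not listed, so that a gene without a cluster may still hold tags, and the lists do not give the depth of single libraries.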
